A study of Mus musculus with 60 samples.

Results

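The 10 genes described here, of hepatic glucose output and its control by insulin and glucagon, were followed through liver, subcutaneous fat and visceral fat. They are G6pc, Pck1, Fbp1, Pcx, Slc37a4, Gcgr, Irs1, Irs2, Insr and Foxo1, taken by symbol from the deposited count table, which lists 54232 gene IDs, and each symbol matched exactly 1 ID. On GRCm38 (GENCODE M21) they are protein-coding genes at 11:101367561-101377903 (G6pc), 2:173153048-173159273 (Pck1), 13:62864753-62888282 (Fbp1), 19:4510472-4621752 (Pcx), 9:44396852-44402968 (Slc37a4), 11:120530699-120538986 (Gcgr), 1:82233101-82291416 (Irs1), 8:10984681-11008458 (Irs2), 8:3122061-3279617 (Insr) and 3:52268336-52353221 (Foxo1). The study sequenced RNA from mice kept for 12 weeks on normal chow with 11% fat (control diet) or on a Western diet with 42% fat, each with or without NaKtide, a peptide that blocks signalling by the Na,K-ATPase. There were 5 libraries in each of the 12 groups, 60 in all. NaKtide was expressed by transgenic mice fed doxycycline at 300 mg/kg in the chow or Western diet. The labels do not say which promoter drives the transgene or whether the mice without NaKtide also carried it or ate doxycycline, so NaKtide and doxycycline cannot be told apart. The series title speaks of adipocytes. The transgene is not among the gene IDs used here, so the NaKtide label was not checked. The labels name no mice across tissues, and p-values therefore measure the spread between these libraries.

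Gluconeogenesis makes glucose from lactate, amino acids and glycerol, mainly in liver. Pyruvate carboxylase (Pcx) and phosphoenolpyruvate carboxykinase (Pck1) carry pyruvate back past its irreversible step, fructose bisphosphatase (Fbp1) reverses the phosphofructokinase step, and glucose-6-phosphatase (G6pc) with its transporter (Slc37a4) releases free glucose. Glucagon, acting on its receptor (Gcgr), raises expression of the enzymes, while insulin, through its receptor (Insr), the substrates Irs1 and Irs2 and exclusion of the forkhead factor Foxo1 from the nucleus, lowers G6pc and Pck1. In fat, Pcx and Pck1 serve fatty acid and glycerol synthesis instead, and G6pc is not a fat cell gene.

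G6pc and Pck1, the 2 members best known as targets of insulin and glucagon, are shown by the 250 bases before their transcription start, because G6pc was called in liver comparisons and Pck1 was not. The sequences are RefSeq promoters of GRCm38.p6, given 5′ to 3′ on the coding strand, and the start is that of RefSeq. It lies past the GENCODE gene starts given above, 101367561 (G6pc) and 173153048 (Pck1), so both windows reach into the stated genes. Capitals mark the letters of the motifs searched on both strands.
G6pc, chr11:101367466-101367715, plus strand: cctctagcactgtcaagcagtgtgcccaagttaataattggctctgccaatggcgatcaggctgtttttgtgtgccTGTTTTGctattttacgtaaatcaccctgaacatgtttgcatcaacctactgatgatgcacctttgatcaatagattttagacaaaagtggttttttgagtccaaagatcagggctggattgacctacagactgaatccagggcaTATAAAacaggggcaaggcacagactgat
Pck1, chr2:173152823-173153072, plus strand: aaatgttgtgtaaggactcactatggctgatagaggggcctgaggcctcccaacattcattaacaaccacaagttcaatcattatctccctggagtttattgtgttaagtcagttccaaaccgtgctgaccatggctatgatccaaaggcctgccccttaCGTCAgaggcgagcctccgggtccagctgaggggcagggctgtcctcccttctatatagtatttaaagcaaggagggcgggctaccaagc
The G6pc window held TGTTTTG, the core of an insulin response unit, 174 bases before the start, and the TATA box TATAAA 29 bases before it. The Pck1 window held 1 CREB half-site, TGACG, read on the other strand 90 bases before the start. Among 32851 RefSeq promoter windows of this length, 5.56% held TGTTTTG, 12.4% held TATAAA and 17.8% held TGACG. Insr had no window and was not searched. The forkhead motif TGTTTAC, in 3.17% of windows, and the variant core TATTTTG, in 3.95%, were in none of the 12 windows of the other members. The E box CACGTG, in 6.02% of windows, was in 3 of those 12. TGTTTTG was in 3 of the 12, those of G6pc, Irs1 and Irs2. TATAAA was in 2, of G6pc and Slc37a4, and TGACG in 4, of Pck1, Irs1 and Slc37a4. These matches describe letters and not binding sites.

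Library depth ran from 3177783 to 9784337 counts. The tissue labels matched defining markers: Alb, the hepatocyte albumin gene, was at 12516 CPM or more in every liver, and Adipoq, a fat cell hormone, was at 800 CPM or more in every subcutaneous library. Visceral Adipoq went down to 53.0 CPM. CPM here is the usual depth-scaled count, computed on TMM-scaled library sizes within each tissue. Several libraries stood apart. Visceral control library 5 held 792 CPM of 8 adipocyte genes, against 7234 or more in the other 19 visceral libraries. Of the 20 visceral libraries, 8 had over 500 CPM of 12 epididymis and testis genes, 3 of them controls. In the same depot 6 had over 500 CPM of 10 hepatocyte genes, 4 of them controls. Control livers 2 and 4 held 365 and 823 CPM of 15 skeletal muscle genes, and subcutaneous control diet NaKtide library 2 held 258254 CPM. The first library labelled Western diet NaKtide held 66.8 CPM of 4 mesothelial genes in subcutaneous fat, where the other 4 held at most 1.62, and 2.96 in visceral fat, where the other 4 held 13.8 to 155. Whether the depot labels of these fat libraries were exchanged was not tested. In both Western diet liver groups the first library resembled the other group. Over 9648 genes with the members left out, Western diet liver 1 correlated at -0.44 with the other 4 livers of its label and at 0.22 with the NaKtide livers. The first Western diet NaKtide liver gave -0.42 and 0.15. The other 8 Western diet livers gave 0.31 to 0.74 with their own label and -0.88 to -0.55 with the other. Whether the labels of these 2 livers were exchanged was not tested, and if so each Western diet liver group would hold 1 library of the other. They are called here by their labels. Some member results that rest on them are also given without them, while correlations and results of other liver genes include them.

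Per gene length, the enzymes G6pc, Fbp1 and Slc37a4 and the receptor Gcgr were liver genes, while the levels of Pck1 and Pcx overlapped between liver and fat. In deposited FPKM over 20 libraries a tissue, median G6pc was 89.4 in liver (31.0 to 284), 0.0262 in subcutaneous fat (0 to 0.491) and 0.192 in visceral fat (0 to 0.996). Every liver was above every fat library. Median Fbp1 was 561, 0.151 and 1.88 in the same order, and the lowest liver, at 168, was above the highest visceral library, at 164. Gcgr had medians of 122, 0.221 and 0.243, also with no overlap. Slc37a4, at 68.0, 5.87 and 6.48, overlapped only through the muscle-laden subcutaneous library, at 41.4 against a lowest liver of 37.0. Pcx had medians of 144, 155 and 133 with overlapping ranges, so its order lay within the spread. Pck1 was 401 in liver, 350 in subcutaneous fat and 89.1 in visceral fat, with ranges that overlapped widely.

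Among the insulin pathway members, the receptor Insr had its highest median in liver, and the substrates and Foxo1 had theirs in fat. Insr FPKM was 5.18 in liver, 2.90 in subcutaneous fat and 3.35 in visceral fat. Its liver range, from 3.91 to 7.62, lay wholly above the subcutaneous range, from 2.19 to 3.79. Irs2 was 1.4, 3.46 and 3.86, Irs1 was 0.158, 0.514 and 0.386, and Foxo1 was 3.66, 6.26 and 5.41. The liver and fat ranges of these 3 genes overlapped. Within liver, Fbp1 had the highest median per length, then Pck1, Pcx, Gcgr, G6pc and Slc37a4, and Irs1 the lowest.

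**Figure D1:**
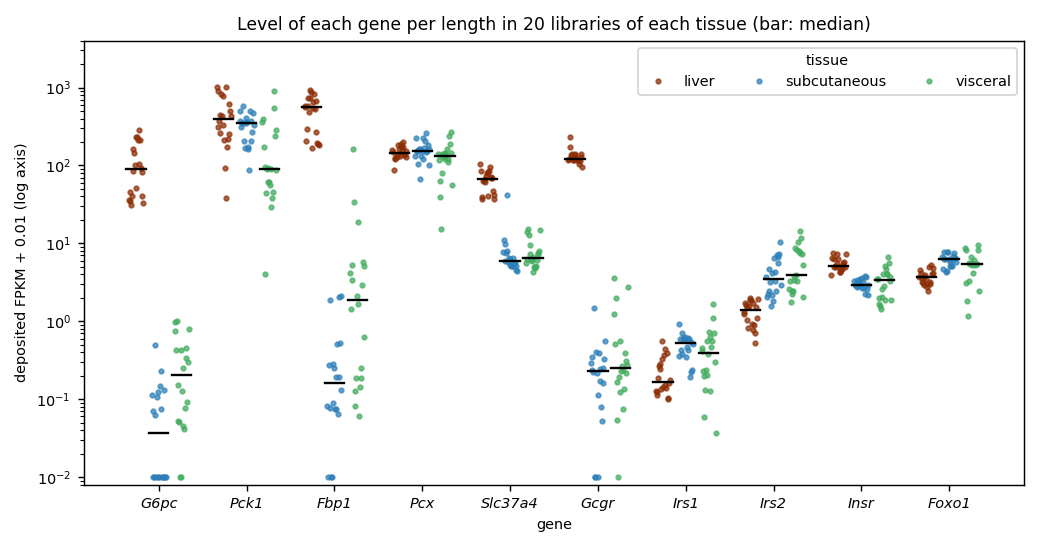
Deposited FPKM plus 0.01 on a log axis for each of the 10 genes, with 1 point per library, 20 per tissue, and a bar at the median. G6pc, Fbp1 and Gcgr are separated between liver and fat, while Pcx has medians of 144, 155 and 133 in the 3 tissues.

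In liver, G6pc rose on the Western diet and also rose with NaKtide on the control diet. On the control diet its 5 livers were tight, at 57.2, 74.0, 57.2, 50.0 and 65.3 CPM. On the Western diet they were 87.9, 393, 357, 469 and 164 CPM. Every Western diet liver was above every control liver, and the lowest was the first Western diet library. The log2 fold change was 2.27 ± 0.45 (SE, n = 5 a group), with an adjusted p of 0.0033 in edgeR's quasi-likelihood test. G6pc was the 1 member called of 10, where 8.44% of the 12991 genes tested were called and 7.23% had groups that did not overlap. The call held without any single library, with adjusted p of at most 0.011.

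With NaKtide on the control diet, G6pc was at 272, 138, 241, 166 and 381 CPM. All 5 livers were above all 5 control livers, as held for 4.07% of genes. The log2 fold change was 1.98 ± 0.45 with an adjusted p of 0.028, again the 1 member called, against 1.55% of all genes. This call was less steady. It held without control library 2 or NaKtide library 2 or 3 and was lost without control libraries 1, 3, 4 and 5 and NaKtide libraries 1, 4 and 5, with log2 values from 1.75 to 2.12 and adjusted p up to 0.10. Without the 2 control livers that held muscle transcripts the value was 2.00 ± 0.57 with an adjusted p of 0.10. The diet and NaKtide comparisons share the 5 control livers.

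On the Western diet the order turned. With NaKtide, G6pc was at 345, 153, 132, 63.6 and 54.4 CPM, and its groups overlapped with the Western diet livers without NaKtide through the first library of each. The log2 difference was -0.97 ± 0.44, with an adjusted p of 0.17. No member was called by edgeR in this comparison, where 4.79% of genes were called, and none had groups that did not overlap, against 4.4% of genes. In all 4 of 10 members had an unadjusted p below 0.05, as had 3203 of the 12991 genes tested. DESeq2 called 0 members and limma's voom with library weights called 6. Counts over all genes by these other methods are not reported here. The interaction, which asks whether the NaKtide difference depends on diet, was -2.95 ± 0.63 for G6pc, with an adjusted p of 0.013, and 5% of all genes passed it. It held without each of the 20 livers in turn, from -3.52 to -2.72. G6pc differed by 1.98 with NaKtide on chow and by -0.97 on the Western diet.

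Fbp1 passed in 1 of the 5 liver comparisons. Fbp1 was at 649, 677, 235, 334 and 661 CPM on the control diet and 859, 550, 848, 1073 and 1039 with NaKtide. The first pair of groups overlapped through NaKtide library 2. On the Western diet Fbp1 was at 201, 648, 773, 961 and 592 CPM, and with NaKtide at 777, 313, 217, 210 and 217. In each Western diet group the first library was the one out of place. Between the 2 NaKtide groups Fbp1 fell by 1.33 on the log2 scale (SE 0.40, adjusted p = 0.021), 1 member of 10 against 24.5% of genes called. The groups overlapped, while those of 13.3% of genes did not. That call was lost without NaKtide Western diet library 3, 4 or 5, with adjusted p up to 0.064, and without the first library of that group it was -1.87 (adjusted p = 0.00094). The share of mitochondrial counts moved with this comparison, 5.33% to 6.87% in NaKtide livers on chow and 7.06% to 16.9% on the Western diet. With that share in the model the Fbp1 difference was -0.45 ± 0.38 (adjusted p = 0.63). Macrophage genes also differed, their 10-gene sum running from 175 to 353 CPM on chow and from 464 to 580 on the Western diet, and their part in the result was not tested. In whole tissue, fewer cells of a type and less RNA per cell cannot be told apart.

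**Figure D2:**
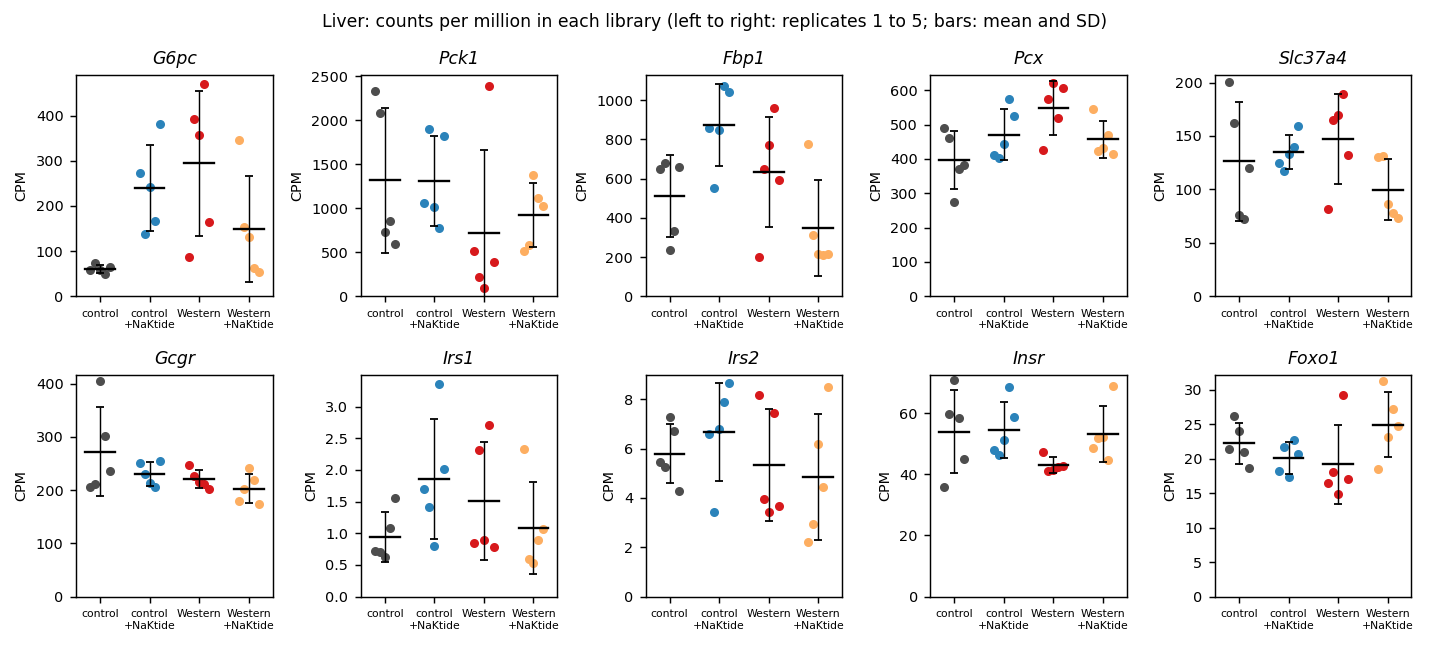
CPM of the 10 genes in liver by group, 1 point per library in replicate order, with the mean and SD of 5 libraries. G6pc is between 50.0 and 74.0 in the control livers, and the first library of each Western diet group lies on the other group's side for G6pc and Fbp1.

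Slc37a4, the glucose-6-phosphate transporter, and Pcx passed in no liver comparison. Slc37a4 was at 81.9, 165, 170, 189 and 132 CPM on the Western diet and 130, 131, 86.7, 77.6 and 73.3 with NaKtide. The groups overlapped, and the difference was -0.56 ± 0.26 with an adjusted p of 0.19. Pcx was between 275 and 491 CPM on the control diet and between 425 and 620 on the Western diet, a difference of 0.47 ± 0.16 with an adjusted p of 0.071. After group means were removed, Fbp1 and Slc37a4 correlated at 0.85 over the 20 livers, G6pc and Fbp1 at 0.79, and Fbp1 and Pcx at 0.76. Gcgr ran the other way, at -0.70 with Pcx and -0.64 with Slc37a4. Both first Western diet livers are included, and Western diet liver 1 was the lowest of its group for G6pc, Fbp1, Slc37a4 and Pcx. The first Western diet NaKtide liver was the highest of its group for G6pc, Fbp1 and Pcx. No value without them was computed. These correlations share libraries and scaling and are given as a description.

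Pck1, the other classic insulin target, did not follow G6pc. Pck1 was at 2339, 2088, 727, 853 and 599 CPM in control livers and at 514, 218, 93.3, 2391 and 389 on the Western diet. Western diet liver 4 alone was above 514, and it was the highest of all 20 livers. The diet difference was -0.87 ± 0.60 with an adjusted p of 0.40. Without that library it was -2.12 with an adjusted p of 0.0087. The NaKtide difference was -0.01 ± 0.59 on chow and 0.35 ± 0.59 on the Western diet, with 95% intervals from -1.26 to 1.25 and from -0.90 to 1.61. G6pc and Pck1 correlated at -0.09 within groups.

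The receptors and insulin signalling members passed in no liver comparison. Gcgr was at 205 to 405 CPM in control livers and 202 to 247 on the Western diet, with a difference of -0.30 ± 0.16 (adjusted p = 0.27). Insr stood between 41 and 47.4 CPM on the Western diet and between 35.9 and 70.8 on chow, a difference of -0.33 ± 0.16 (adjusted p = 0.23). Foxo1 was 22.2 CPM on average on chow and 19.2 on the Western diet, a difference of -0.21 ± 0.18 (adjusted p = 0.50). Irs2, at 2.20 to 8.66 CPM over all livers, and Irs1, at 0.537 to 3.35 CPM, were the lowest members. Their standard errors, 0.33 for Irs2 and 0.50 for Irs1 in the diet comparison, were wider than that of Insr. The largest of these members' interactions was Irs1 at -1.34 ± 0.68 (adjusted p = 0.20).

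**Figure D3:**
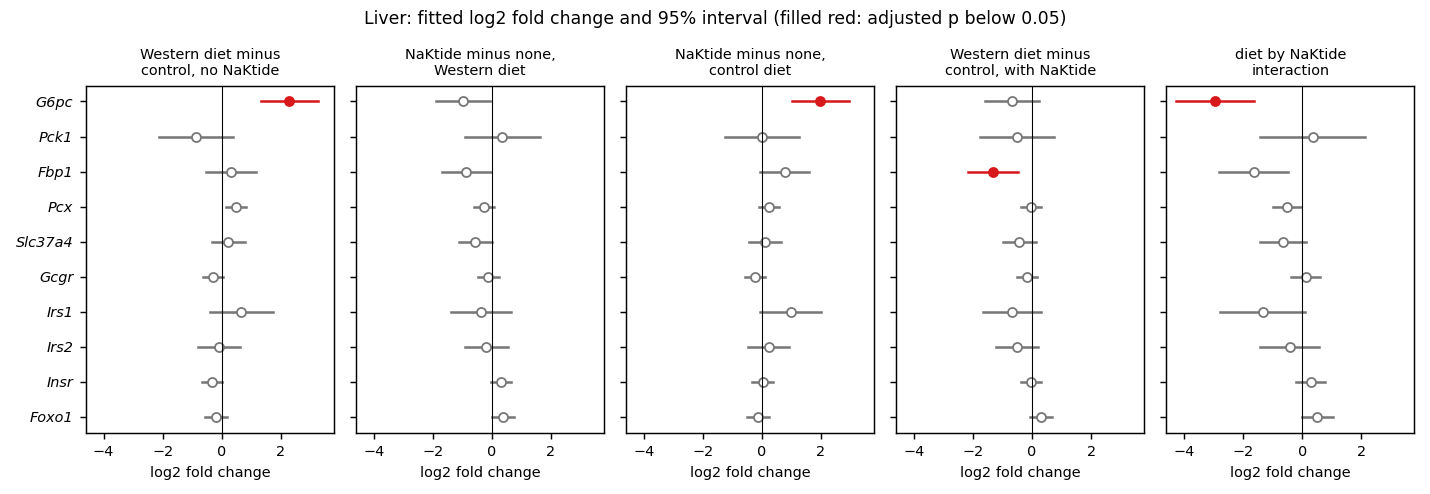
Fitted log2 fold change of each gene in the 5 liver comparisons with its 95% interval, filled red where the adjusted p is below 0.05. G6pc is called in 3 panels, at 2.27, 1.98 and -2.95, and Fbp1 in 1, at -1.33.

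Both first Western diet livers were then left out, a choice made after their values were seen. Without them G6pc fell by 1.77 with NaKtide on the Western diet (SE 0.35, adjusted p = 0.0014), Fbp1 fell by 1.63 (SE 0.29, adjusted p = 0.00065) and Slc37a4 fell by 0.82 (SE 0.26, adjusted p = 0.026). The interaction was -3.73 ± 0.47 for G6pc, -2.38 ± 0.39 for Fbp1, -2.09 ± 0.69 for Irs1 and -0.64 ± 0.23 for Pcx, with adjusted p of 4.4e-05, 0.00043, 0.029 and 0.039. With diet, G6pc was 2.49 ± 0.33 and Pcx 0.53 ± 0.16 higher. The first libraries lie on the other group's side for G6pc and Fbp1 as they do over the 9648 other genes, and the cause was not tested. Without them the mitochondrial share separated the 2 Western diet groups, 5.64% to 8.03% without NaKtide and 9.03% to 16.9% with it, and the macrophage sum did so with all libraries, 211 to 419 against 464 to 580 CPM. With the mitochondrial share in the model of all 20 livers, the NaKtide differences on the Western diet were -0.19 ± 0.32 for G6pc, -0.22 ± 0.34 for Fbp1 and -0.14 ± 0.24 for Slc37a4 (adjusted p = 0.86, 0.84 and 0.86), while the G6pc interaction was -2.17 ± 0.43 (adjusted p = 0.014).

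Beyond the members, several liver genes of glycolysis and glucose handling rose on the Western diet. Of 17 tested genes of glycolysis control, 3 rose and 0 fell, with a median log2 difference of 0.63 against 0.03 over all genes tested, of which 8.44% were called (617 higher and 480 lower of 12991). That share also stands against the other list counts for diet. Pklr, the liver pyruvate kinase, went from a mean of 46.5 to 368 CPM (2.98 ± 0.44, adjusted p = 0.00017), and Pdk1, a kinase that inhibits pyruvate dehydrogenase, rose by 0.94 ± 0.24. Of 17 other gluconeogenic and shared enzymes, 3 rose and 2 fell. Gpi1, which interconverts glucose and fructose phosphates, rose by 1.67 ± 0.16, while the alanine aminotransferase Gpt fell by 0.90 (SE 0.16) and the serine dehydratase Sds fell by 0.71 (SE 0.22).

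No enrichment of these lists was tested, and the lists and their genes were not refitted without the first Western diet livers. Of 13 glycogen genes 3 rose and 0 fell, among them Ppp1r3b, which targets a phosphatase to glycogen, at 1.82 ± 0.40. Of 6 glucose transporters 2 rose and 1 fell, with Slc2a2, the main hepatocyte transporter, at 0.94 ± 0.27. Of 14 known Foxo1 targets 2 rose and 1 fell. Igfbp1, which binds insulin-like growth factors, rose by 2.72 ± 0.50 from 2.59 to 17.2 CPM, and Mttp, needed for lipoprotein export, by 0.64 ± 0.16. In the insulin signal relay 3 of 20 rose, Mtor by 0.62 ± 0.14 and Pik3r1 by 0.86 ± 0.25 among them.

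With NaKtide, other genes were called on each diet. On chow, Pklr was 2.54 ± 0.43 higher, Slc2a2 1.41 ± 0.27 and Ppp1r3b 1.81 ± 0.40, and Bcl6, a repressor that Foxo1 induces, fell by 2.27 (SE 0.36). On the Western diet, Igfbp1 fell by 2.11 (SE 0.48) with NaKtide, Gpi1 fell by 0.67 (SE 0.16), the liver glycogen phosphorylase Pygl fell by 0.80 (SE 0.22) and Lpin1, a phosphatidate phosphatase, fell by 1.90 (SE 0.43). In the same comparison the alanine aminotransferase Gpt2 rose by 0.67 ± 0.16, the pyruvate kinase Pkm by 0.94 ± 0.18, the phosphofructokinase Pfkl by 0.63 ± 0.16 and the monocarboxylate transporter Slc16a7 by 1.26 ± 0.28. Glycolysis control had 2 rises and 0 falls of 17, and the gluconeogenic and shared enzymes 1 and 1 of 17, where 4.79% of all genes were called. The interaction passed for Pklr at -3.76 ± 0.59, Slc2a2 at -1.77 ± 0.37, Ppp1r3b at -2.47 ± 0.56 and Igfbp1 at -2.92 ± 0.71. By list, 3 of 17 gluconeogenic and shared enzymes, 2 of 17 glycolysis control genes, 2 of 13 glycogen genes and 1 of 14 Foxo1 targets had a negative interaction, and 0, 1, 0 and 0 a positive one. Of the 6 glucose transporters 1 was negative and 1, Slc2a1, positive at 1.19 ± 0.34. Over all genes 5% passed, 269 higher and 380 lower.

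The genes whose level over the 20 livers was most like each member were ranked by Pearson's r among 8632 others (8633 for Irs1, itself lower) with a mean of at least 5 CPM. For G6pc they were Acly (0.871), Ppp1r3b (0.868) and Pklr (0.855), the first being the enzyme that makes acetyl-CoA for lipid synthesis. For Pck1 they were Ctsc (0.835), Junb (0.81) and Pim3 (0.809), and for Fbp1 they included Morf4l1-ps1 (0.985) and Pdzk1 (0.973). Gcgr was most like Nlrp6 (0.943), Pcx most like Vkorc1l1 (0.925), and Slc37a4 most like Pgam1 (0.895). The best values were 0.818 for Irs1, with Ahr, 0.804 for Insr, with Tapt1, 0.736 for Foxo1, with Pros1, and 0.717 for Irs2, with Kdm3a. These are descriptions over libraries that share depth and groups, with both first Western diet livers included.

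In subcutaneous fat no member passed in any of the 5 comparisons by edgeR, and Irs2 and Slc37a4 came nearest, both in NaKtide mice. G6pc, Fbp1 and Gcgr were too low to be tested, with 28, 118 and 111 counts over all 20 libraries, which leaves 7 members. On diet alone 5.61% of 15226 genes were called, and in each of the other 4 comparisons 0%. Groups did not overlap for 11.8% of genes with diet alone, 4.99% with NaKtide on the Western diet and 0.736% with NaKtide on chow, and for no member in these 3. The members with an unadjusted p below 0.05 numbered 0 in 4 comparisons, where 918 to 3599 of the 15226 genes had one. They numbered 3 for diet among NaKtide mice, where 3735 of the genes had one. DESeq2 called 2 in that last comparison, Irs2 at 1.29 ± 0.36 (adjusted p = 0.0097) and Slc37a4 at -1.48 ± 0.44 (adjusted p = 0.018), and 0 in the other 4. Voom called 1 for diet alone, Slc37a4 at -0.65 ± 0.16 (adjusted p = 0.0073), and 0 in the other 4. Counts over all genes by DESeq2 and voom are not reported here.

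Subcutaneous Slc37a4 was highest in the library with the most muscle transcripts. On the control diet it was at 26.9, 38.0, 34.9, 19.7 and 26.3 CPM, and on the Western diet at 17.6, 17.5, 17.0, 22.2 and 17.0. The groups overlapped through Western diet library 4. The 15-gene muscle sum ran from 8030 to 60654 CPM in the first group and from 71.0 to 261 in the second, and its part in the difference was not tested. The NaKtide library with the most muscle had Slc37a4 at 139 CPM against 19.4 to 26.9 in the other 4. Among NaKtide mice Slc37a4 was -1.36 ± 0.42 different with diet (adjusted p = 0.091), and -0.40 (adjusted p = 0.20) without that library.

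Irs2 among NaKtide mice was at 24.1, 11.6, 30.8, 16.4 and 14.1 CPM on chow and 50.3, 41.6, 54.1, 76.8 and 21.4 on the Western diet. Only Western diet library 5 reached into the other group. The edgeR difference was 1.3 ± 0.35 with an adjusted p of 0.063. Irs1 was at 5.98 to 7.69 CPM on chow and 2.01 to 5.61 on the Western diet with no overlap, as for 3.36% of genes, and its difference was -0.89 ± 0.32 (adjusted p = 0.11). Pck1, at 353 to 2363 CPM over the depot, and Insr, at 34.8 to 60.7 CPM, differed within the spread, with Pck1 at -0.59 ± 0.40 on the Western diet (adjusted p = 0.37).

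In visceral fat, Pck1, which makes the glycerol backbone of triglyceride there, was 8.08 times higher with NaKtide on the Western diet. It was at 243, 130, 395, 170 and 201 CPM without NaKtide and at 4034, 2455, 1028, 1306 and 378 with it. The first 4 NaKtide libraries were above every Western diet library, and library 5 was not. NaKtide library 1, the highest at 4034, is the one with 2.96 CPM of mesothelial genes, and its depot label was not tested. The log2 fold change was 3.01 ± 0.79 with an adjusted p of 0.019. In all 2 of 10 members were called here, against 13.2% of 17235 genes. Without each of the 10 libraries in turn the value ran from 2.48 to 3.29 and was called in 7 cases, and it was lost without Western diet library 4 or 5 or NaKtide library 1, with adjusted p of 0.059, 0.056 and 0.051.

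The adipocyte sum was 13143 to 14951 CPM on the Western diet and 8826 to 26021 with NaKtide, and the macrophage sum 1878 to 3968 and 491 to 1614, which differed without overlap. Their part in the Pck1 difference was not tested. NaKtide library 5 had the lowest adipocyte sum and 26382 CPM of epididymis and testis genes. Without the 8 libraries rich in those genes, a choice made after the values were seen, Pck1 was 3.58 ± 0.45 higher (adjusted p = 0.00035) and Pcx 0.95 ± 0.17 higher (adjusted p = 0.0031). The median sum of those genes in the Western diet NaKtide group was 951 CPM, over the limit of 500. Most libraries of that group were therefore left out of this fit, which rests on the few that remained.

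On chow the Pck1 means stood in the other order, short of the threshold. Control libraries were at 1586, 1755, 787, 420 and 16.2 CPM, and NaKtide libraries at 190, 383, 402, 275 and 267. The first 4 control libraries were above all NaKtide libraries, and control library 5, with 792 CPM of adipocyte genes, was below them. The difference was -1.59 ± 0.75 with an adjusted p of 0.18, and the diet difference was -2.00 ± 0.76 (adjusted p = 0.059). The interaction was 4.60 ± 1.09 with an adjusted p of 0.0052, and it held without each of the 20 libraries, from 4.03 to 4.88. It was 1 of 4 member interactions called, against 32.2% of genes. The diet and NaKtide comparisons share the same 5 control libraries. The macrophage sum was 204 to 847 CPM in controls, 2138 to 3021 with NaKtide on chow and 1878 to 3968 on the Western diet without NaKtide. Its part in these Pck1 differences was not tested. Without the tract-rich libraries only control libraries 1 and 2 were left. Pck1 was then -2.91 ± 0.44 with diet (adjusted p = 0.0013) and -2.33 ± 0.44 with NaKtide on chow (adjusted p = 0.005). Without the 6 hepatocyte-rich libraries control library 5, at 16.2 CPM, was alone in its group, and the Pck1 interaction turned to -1.13 ± 0.87 (adjusted p = 0.36). The NaKtide difference on the Western diet, which does not use the controls, was then 3.25 ± 0.44 (adjusted p = 0.00096).

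**Figure D4:**
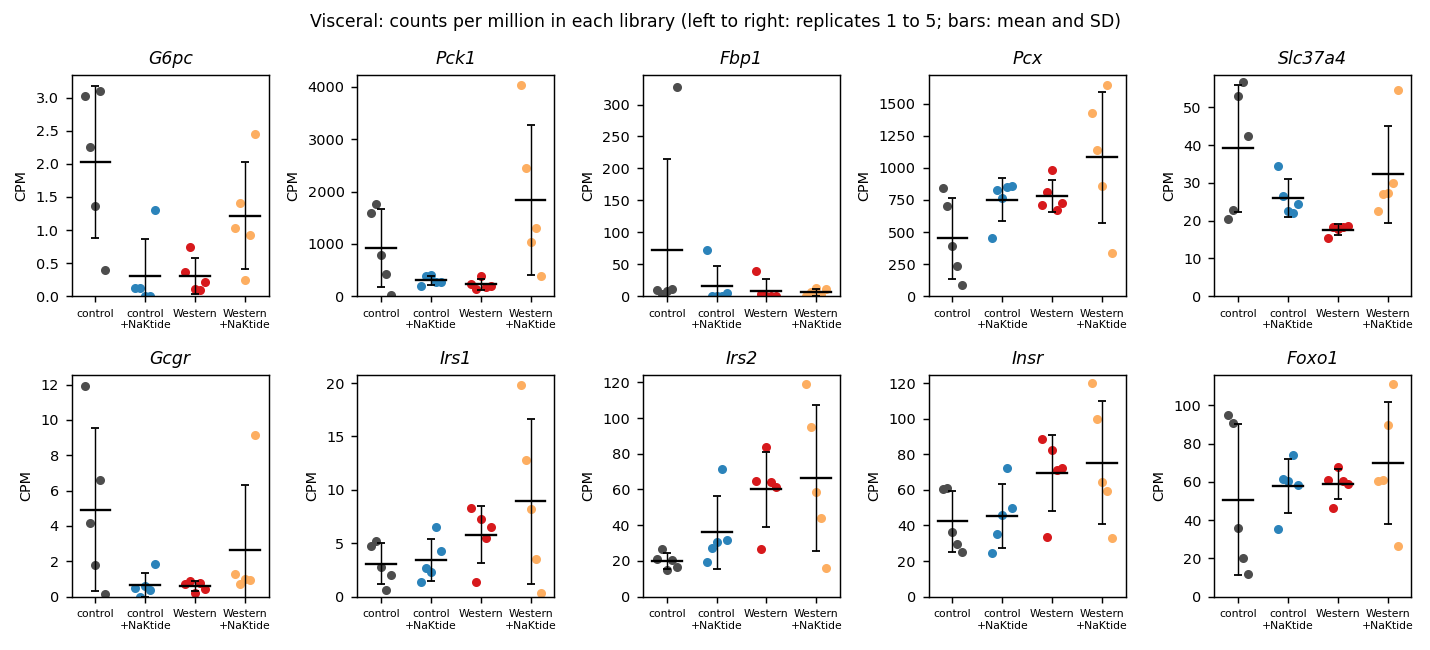
CPM of the 10 genes in visceral fat by group, 1 point per library in replicate order, with the mean and SD of 5 libraries. Pck1 reaches 4034 with NaKtide on the Western diet, and single libraries set the means of Fbp1 (327) and Slc37a4 (54.7).

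The median log2 difference of all genes in this depot was -0.22 for diet, -0.23 for NaKtide on chow and 0.30 for the interaction, and the member values stand against those shifts. For diet 4 members were called, against 24.9% of genes: G6pc, Gcgr and Slc37a4 fell and Irs2 rose. For NaKtide on chow, with 7.15% of genes called, edgeR called 0 members, DESeq2 called 2 and voom 4. An unadjusted p below 0.05 was found for 4 members and for 4609 of 17235 genes. Groups did not overlap for 8% of genes and for no member. For diet among NaKtide mice, with 4.82% called, edgeR called 0 members, DESeq2 called 1 and voom 4. An unadjusted p below 0.05 was found for 1 member and for 3117 of 17235 genes. Groups did not overlap for 8.79% of genes and for no member. Counts over all genes by DESeq2 and voom are not reported here.

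G6pc and Gcgr, both hepatocyte genes, were close to the counting limit in visceral fat and highest in the libraries with the most hepatocyte transcripts. G6pc was at 3.02, 2.26, 1.37, 3.1 and 0.402 CPM in controls and 0.362, 0.751, 0.11, 0.096 and 0.212 on the Western diet, from 61 and 13 counts in all. Only control library 5 reached into the other group. The difference was -2.69 ± 0.88 with an adjusted p of 0.037. Gcgr was at 11.9, 4.17, 1.76, 6.59 and 0.134 CPM and 0.724, 0.876, 0.22, 0.768 and 0.423, a difference of -2.99 ± 0.98 (adjusted p = 0.037). Leaving out 1 library at a time kept the G6pc call in 2 of 10 cases and the Gcgr call in 3, with adjusted p up to 0.11 for both. The sum of 10 hepatocyte genes was 1667, 675, 618, 2400 and 35.9 CPM in the controls and 24.4, 423, 8.46, 15.0 and 44.1 on the Western diet.

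In the 6 visceral libraries with over 500 CPM of hepatocyte genes, G6pc per 1000 hepatocyte CPM was 0.962 to 3.35, and in liver it was 0.952 to 10.1. For Gcgr these ratios were 2.5 to 7.14 and 3.42 to 8.49. Below that limit, where a few counts set each value, the ratios spread more widely: G6pc was at 8.69 and 13.2 in Western diet NaKtide libraries 1 and 2, and Gcgr reached 54.8 in library 3 of that group, above the liver range. In the 1 subcutaneous library with as many, control library 5 at 1202 CPM, they were 1.2 and 3.93. The interactions were 4.53 ± 1.26 for G6pc (adjusted p = 0.014) and 4.88 ± 1.38 for Gcgr (adjusted p = 0.015). Leaving out the 6 hepatocyte-rich libraries left 1 control library, and G6pc then differed by -0.26 ± 1.31 with diet (adjusted p = 0.89), and Gcgr was too low to be tested. The part of hepatocyte transcripts in these differences was not tested otherwise.

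Slc37a4 was highest in the visceral libraries with the most epididymis and testis transcripts. Slc37a4 was at 20.4, 22.9, 53.1, 56.6 and 42.5 CPM in controls and 15.3, 18.4, 17.7, 18.3 and 18.6 on the Western diet. The groups did not overlap, as for 12.2% of genes, and Slc37a4 fell by 1.14 (SE 0.28, adjusted p = 0.011). The 3 high control libraries held 14831, 22834 and 16313 CPM of epididymis and testis genes, the other 2 held 316 and 13.1. Without the 8 tract-rich libraries, which leaves control libraries 1 and 2, the difference was -0.25 ± 0.16 (adjusted p = 0.32), so the diet call was lost. With NaKtide on the Western diet Slc37a4 was at 22.5, 27.0, 27.4, 29.9 and 54.7 CPM, above all 5 Western diet libraries, as for 11.6% of genes. It rose by 0.87 ± 0.28 (adjusted p = 0.048). That call was kept in 1 of 10 cases when 1 library was left out, with adjusted p up to 0.16. Without the tract-rich libraries, which include most of the Western diet NaKtide group, it rose by 0.52 ± 0.16 (adjusted p = 0.037). The interaction of Slc37a4 was 1.45 ± 0.39 (adjusted p = 0.012), and 0.38 ± 0.23 (adjusted p = 0.23) without the tract-rich libraries.

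Fbp1 was at 327 CPM in control library 5, 72.7 in control diet NaKtide library 1 and 40.1 in Western diet library 1, and at 12.6 or less in the other 17. Those 3 libraries held 16313, 6224 and 761 CPM of the tract genes, but Fbp1 did not follow that sum, since control libraries 3 and 4 and Western diet NaKtide library 5, with 14831, 22834 and 26382 CPM, had Fbp1 at 7.64, 11.6 and 11.0. The Fbp1 diet difference was -3.01 ± 1.78 (adjusted p = 0.20).

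**Figure D5:**
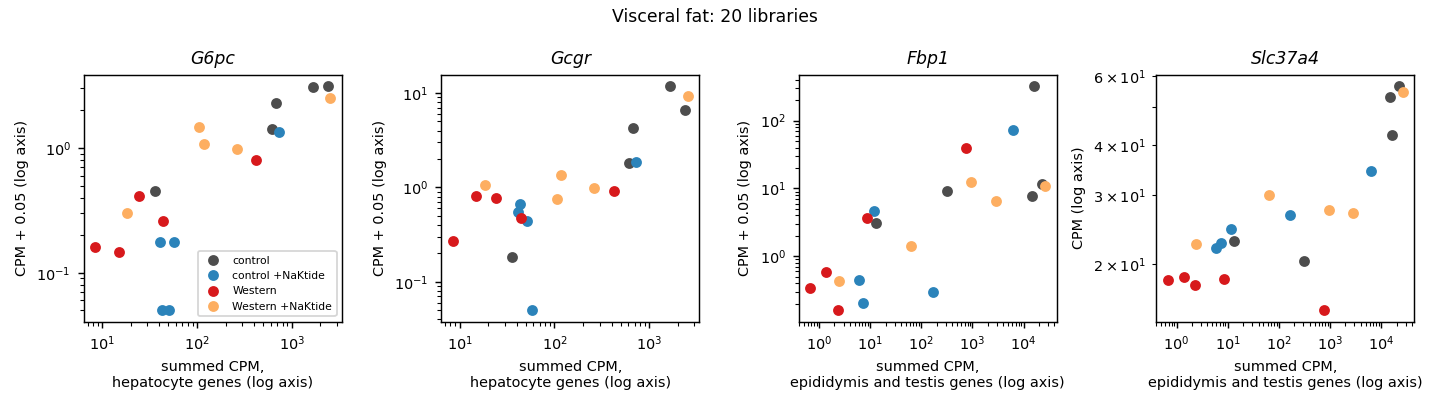
G6pc and Gcgr against the summed CPM of 10 hepatocyte genes, and Fbp1 and Slc37a4 against that of 12 epididymis and testis genes, in 20 visceral libraries coloured by group, on log axes. The libraries with the highest hepatocyte sums, 1667 to 2543, have the highest G6pc and Gcgr, and the 4 with 14831 CPM or more of tract genes have Slc37a4 at 42.5 or above.

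Among the insulin signalling members, Irs2 rose on the Western diet in visceral fat. It was at 21.2, 26.4, 15.1, 20.2 and 16.3 CPM in controls and 64.7, 26.4, 84.0, 64.2 and 61.1 on the Western diet. The other 4 Western diet libraries were above every control, and library 2 was level with the highest control. The difference was 1.60 ± 0.44 with an adjusted p of 0.02. The macrophage sum moved with the same comparison without overlap, 204 to 847 CPM in controls and 1878 to 3968 on the Western diet, and its part in the result was not tested. Irs2 lost the call without control library 3 or Western diet library 3, with adjusted p of 0.054 and 0.056. Without the tract-rich libraries, with control libraries 1 and 2 left, it was 1.3 ± 0.54 (adjusted p = 0.12). Insr was 0.72 ± 0.37 higher with diet (adjusted p = 0.15), Irs1 0.92 ± 0.73 (adjusted p = 0.34) and Foxo1 0.21 ± 0.46 (adjusted p = 0.74). Socs3, an inhibitor of insulin signalling that cytokines induce, rose by 3.55 ± 0.44 with diet and by 2.33 ± 0.42 with NaKtide on chow. With NaKtide on the Western diet it fell by 2.96 (SE 0.43), beside the macrophage sums above. The Socs3 interaction was -5.29 ± 0.60. Of 11 inhibitors of insulin signalling tested, 1 rose and 1 fell with diet. The other one called, Enpp1, went the opposite way, at -5.33 ± 1.67 with diet and 5.67 ± 2.11 for the interaction.

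Other genes of these pathways in visceral fat gave 2 rises and 4 falls of 18 gluconeogenic and shared enzymes with diet, where 24.9% of all genes were called. Pck2, the mitochondrial carboxykinase, fell by 0.89 (SE 0.25) and Tpi1, a triose isomerase, rose by 0.81 ± 0.25. With NaKtide on the Western diet 1 of the 18 rose (13.2% of all genes were called), the alanine aminotransferase Gpt2, by 2.14 ± 0.39, and 0 fell. Klf15, a transcription factor of gluconeogenesis, fell by 0.97 (SE 0.28) with diet and rose by 1.28 ± 0.28 with NaKtide on the Western diet.

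Between depots on the control diet, 2 of 10 members were called, against 27.2% of 17788 genes, and no member had groups that did not overlap, against 6.09% of genes. Fbp1 was 6.14 ± 1.72 higher in visceral fat (adjusted p = 0.011) and Pcx 1.06 lower (log2 difference -1.06 ± 0.39, adjusted p = 0.04). Visceral Pcx was at 842, 705, 394, 234 and 83.9 CPM and subcutaneous Pcx at 741, 1245, 890, 822 and 590, each scaled within its depot, and the depots overlapped through visceral libraries 1 and 2. The Pcx call held in 3 of 10 cases when 1 library was left out. Both calls were lost without visceral control library 5, where Fbp1 was 2.93 (adjusted p = 0.19) and Pcx -0.79 (adjusted p = 0.14). They were also lost without the tract-rich libraries, with visceral control libraries 1 and 2 left, at 2.58 ± 1.21 (adjusted p = 0.45) and -0.27 ± 0.31 (adjusted p = 0.80). Pck1, Insr and Foxo1 did not pass, at -0.90 ± 0.61, -0.38 ± 0.29 and -0.51 ± 0.35.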

How the data were processed

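RNA from liver, subcutaneous fat and visceral fat was sequenced in 60 libraries, 5 in each of 12 groups defined by tissue, diet and NaKtide. Per the submitters' processing notes, Trimmomatic 0.38, HISAT2 2.1.0 and DESeq2 1.20.0 were used with GRCm38, while neither the counting program nor its strand setting is given in the sources used here. The authors deposited raw counts per gene and FPKM. In 12230 genes counted in every library the deposited FPKM equals the count times 1 library factor and 1 gene factor (relative tolerance 1e-06), so it is used for levels between genes. Symbols come from GENCODE M21, for 54079 of 54232 IDs. Pcx overlaps Lrfn4, and Gcgr overlaps Gm11789, on the opposite strand, so their reads may mix.

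Each tissue was fitted alone over its 20 libraries with edgeR 4.0.16 (R 4.3.3): low-count filter by group, TMM scaling, quasi-likelihood F test and Benjamini-Hochberg adjustment over all genes tested, called below 0.05. The depot comparison used all 40 fat libraries. CPM is on the TMM scale, and the SE is the log2 value over the root of F. Alternatives were RLE scaling, no filter, DESeq2 1.42.0, limma 3.58.1 voom with quality weights, only the groups compared, a replicate block, each library left out, and sets of libraries left out or a mitochondrial covariate, the last 2 chosen after seeing the data. The tests were checked on simulated counts. Total counts of 3177783 to 9784337 a library set the precision. No 2 libraries of a group agreed within counting noise (lowest chi-square per gene 3.1). The members and the 10 pathway lists were chosen with earlier results of these data known. Named genes are the 10 members and, per list and comparison, up to 2 called rises and 2 falls with the smallest p, of which a selection is given, and some genes are not reported here.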

Additional observations from a re-analysis of the deposited data

Results flagged for a closer look

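Within groups of 5 libraries, the highest or lowest library lay far from the others in 16 cases of 108 tested, and chance gives about 1 in 20 groups. In liver these were Pck1 in Western diet library 4 (2391 CPM, next 514), Foxo1 in the same library (29.3, next 18.1), Insr in Western diet library 1 (47.4, next 42.7) and Fbp1 in the first Western diet NaKtide library (777, next 313). In subcutaneous fat they were Slc37a4 (139) and Pcx (361, the lowest) in control diet NaKtide library 2, which holds the most muscle transcripts, and Slc37a4 in Western diet library 4 (22.2). In visceral fat Fbp1 stood apart in control library 5 (327), control diet NaKtide library 1 (72.7) and Western diet library 1 (40.1), each of which had over 500 CPM of epididymis and testis genes. Pcx was lowest in control diet NaKtide library 1 (457), and Slc37a4 was lowest in Western diet library 1 (15.3). G6pc was highest in control diet NaKtide library 5 (1.3 CPM), the one of its group with 729 CPM of hepatocyte genes. Western diet NaKtide library 5, with the highest hepatocyte and tract sums of its group, had the highest Gcgr (9.17) and Slc37a4 (54.7). Irs2 was highest in control diet NaKtide library 4 (71.6).

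The NaKtide difference depended on diet by the interaction test for G6pc in liver (-2.95) and for G6pc (4.53), Pck1 (4.60), Slc37a4 (1.45) and Gcgr (4.88) in visceral fat.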

How the results depend on the processing

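Counts of members called moved with voom, with single libraries and with sets of libraries left out. Counts of all genes called under each setting are not reported here. Whether the member counts moved more than those over all genes is therefore not shown. In liver, voom called 3 for diet, 6 for NaKtide on the Western diet, 3 for diet with NaKtide and 4 for the interaction, where DESeq2 called 2. Leaving out 1 library gave 1 to 2, 0 to 2, 0 to 1, 0 to 2 and 1 to 3 members for diet, NaKtide on the Western diet, NaKtide on chow, diet with NaKtide and the interaction. Leaving out both first Western diet livers gave 2 for diet, 3 for NaKtide on the Western diet, 3 for diet with NaKtide and 4 for the interaction. Without the muscle-containing control livers NaKtide on chow gave 0. With the mitochondrial covariate the counts were 2 for diet and 0 for diet with NaKtide. In subcutaneous fat, diet gave 1 with voom and 1 with only the groups compared, and diet with NaKtide gave 2 with DESeq2 and 0 to 2 without 1 library. In visceral fat, diet gave 2 with no filter, 2 with only the groups compared and 1 to 5 without 1 library. NaKtide on the Western diet gave 1 with no filter, 5 with voom and 0 to 2 without 1 library. NaKtide on chow gave 2 with DESeq2, 4 with voom, 0 to 2 without 1 library, 2 without the tract-rich and 3 without the hepatocyte-rich libraries. Diet with NaKtide gave 1 with DESeq2, 4 with voom, 1 with only the groups compared, 0 to 1 without 1 library, 2 without the tract-rich and 1 without the hepatocyte-rich libraries. Between depots the count was 1 with no filter, 1 with voom, 0 with only the groups compared, 0 to 3 without 1 library and 0 without the tract-rich libraries. In all 6 values reversed, meaning a changed sign with a call in at least 1 of the 2 fits. Sign changes with no call in either fit are not among them. Without the hepatocyte-rich libraries, which leaves control library 5 alone in its group, visceral Pck1 was 3.94 for diet, 4.38 for NaKtide on chow and -1.13 for the interaction and Foxo1 -1.97 for the interaction, and without the tract-rich libraries the Pcx interaction was 0.86. With voom, Fbp1 for NaKtide on the Western diet was 2.82. The cause was not tested. Replicate numbers are shared by the groups, and the libraries were not treated as paired in the main fits. In every comparison at least 1 of 5 same-number correlations was under 0.1. For NaKtide on chow in subcutaneous fat 4 of 5 were above it. Libraries of different numbers were not compared, so whether the numbers pair the libraries was not tested. With the replicate block, G6pc for NaKtide on chow in liver was 1.99 (adjusted p = 0.083, 0 members called), and in visceral fat NaKtide on the Western diet called 1 member.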
